A study of Hypomesus transpacificus with 70 samples.

Results

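ITPK1, THTPA and PPP1R14ba are 3 genes whose products handle phosphate groups in cell signaling and cofactor metabolism, and their mRNA was followed in the gills of delta smelt (Hypomesus transpacificus), a small fish of the San Francisco estuary. They were found by symbol in the study's list of transcripts that responded to salinity, which holds 448 genes on 697 probes. The 3 genes are measured by 4 of the 36818 probes of the array, and the 2 probes of ITPK1 were averaged in each fish. That list was drawn up from the same 70 fish for effects of salinity or of salinity with exposure time, so the tests of salinity below are not independent evidence that these genes respond. The same holds for time courses within a salinity, which enter the effect of salinity with exposure time. The effect of exposure time averaged over salinities and the comparison with fish from before the experiment were not criteria of the list, although the control fish in them also served as its reference.

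The fish were hatchery-reared adults not yet spawning, each hybridised to its own single-color array. They were moved from 2.3 ppt to 0.4, 6, 12 or 18 ppt over a ramp of 6 h, or kept at 2.3 ppt as the handling control, and were sampled at the end of the ramp (0 h) and after 18 and 42 h at the target salinity. Each group held 4 fish, except for 3 at 12 ppt at 18 h and 6 at each time in the control. A further 5 fish were sampled before the experiment. By the study's methods these too had been transferred to the experimental containers and kept there overnight at 2.3 ppt. Fish of a group outside the control shared a container, so container and group cannot be told apart there, and p-values measure the spread between fish. The labels of control and pre-experiment fish add a letter, A, B or C, whose meaning they do not give.

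ITPK1 (inositol-tetrakisphosphate 1-kinase) is an enzyme that adds and moves phosphate groups on the inositol ring, and in mammals it feeds the synthesis of the highly phosphorylated inositol phosphates. THTPA (thiamine triphosphatase) removes the terminal phosphate of thiamine triphosphate, a minor phosphorylated form of vitamin B1. PPP1R14ba is named as a fish copy of PPP1R14B, one of a family of small proteins that, once phosphorylated, inhibit protein phosphatase 1. The related PPP1R14A is known in mammals for sustaining smooth muscle contraction through inhibition of myosin phosphatase. The gill of a euryhaline fish carries ionocytes, cells rich in mitochondria and ion pumps that are remodeled when salinity changes.

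The designed probes are printed because they set what each value measures. Capitals mark the bases that both ITPK1 probes share, and the lower-case probes share no such stretch.
ITPK1 probe 1: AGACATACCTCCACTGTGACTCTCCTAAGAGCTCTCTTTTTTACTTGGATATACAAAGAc
ITPK1 probe 2: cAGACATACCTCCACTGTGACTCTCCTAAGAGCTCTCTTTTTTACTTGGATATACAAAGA
THTPA: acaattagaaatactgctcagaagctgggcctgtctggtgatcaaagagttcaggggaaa
PPP1R14ba: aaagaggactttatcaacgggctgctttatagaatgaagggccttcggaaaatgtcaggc
The ITPK1 probes share 59 of 60 bases and are offset by 1 base, so they are close to repeat readings of 1 site and not a test of a second part of the transcript. RefSeq lists 2 delta smelt genes of this name, itpk1a and itpk1b, and which of them the probes read was not settled here. It lists 1 gene each for thtpa and ppp1r14ba.

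Across the arrays the median signal ranged from 12.9 to 131 and the share of probes well above background from 62.0% to 90.8%. After filtering, 14226 genes and single probes were tested. All 3 genes were well above background on 70 of 70 arrays, and a signal of 100 or more was reached on 68 arrays by ITPK1, on 67 by THTPA and on 40 by PPP1R14ba. PPP1R14ba is therefore the dim probe of the set, with processed signals from 27.8 to 463. The ITPK1 probes followed each other closely, with a mean difference of 0.05 and an SD of 0.20 on the log2 scale and a Pearson r of 0.914 over the 70 fish, given as a description. All levels below are quantile-normalized log2 signals, and an adjusted p is limma's after Benjamini-Hochberg adjustment over all genes and single probes, with a threshold of 0.05. Where groups of fish are said not to overlap, this is a description. The share of all genes without overlap was not counted.

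**Figure D1:**
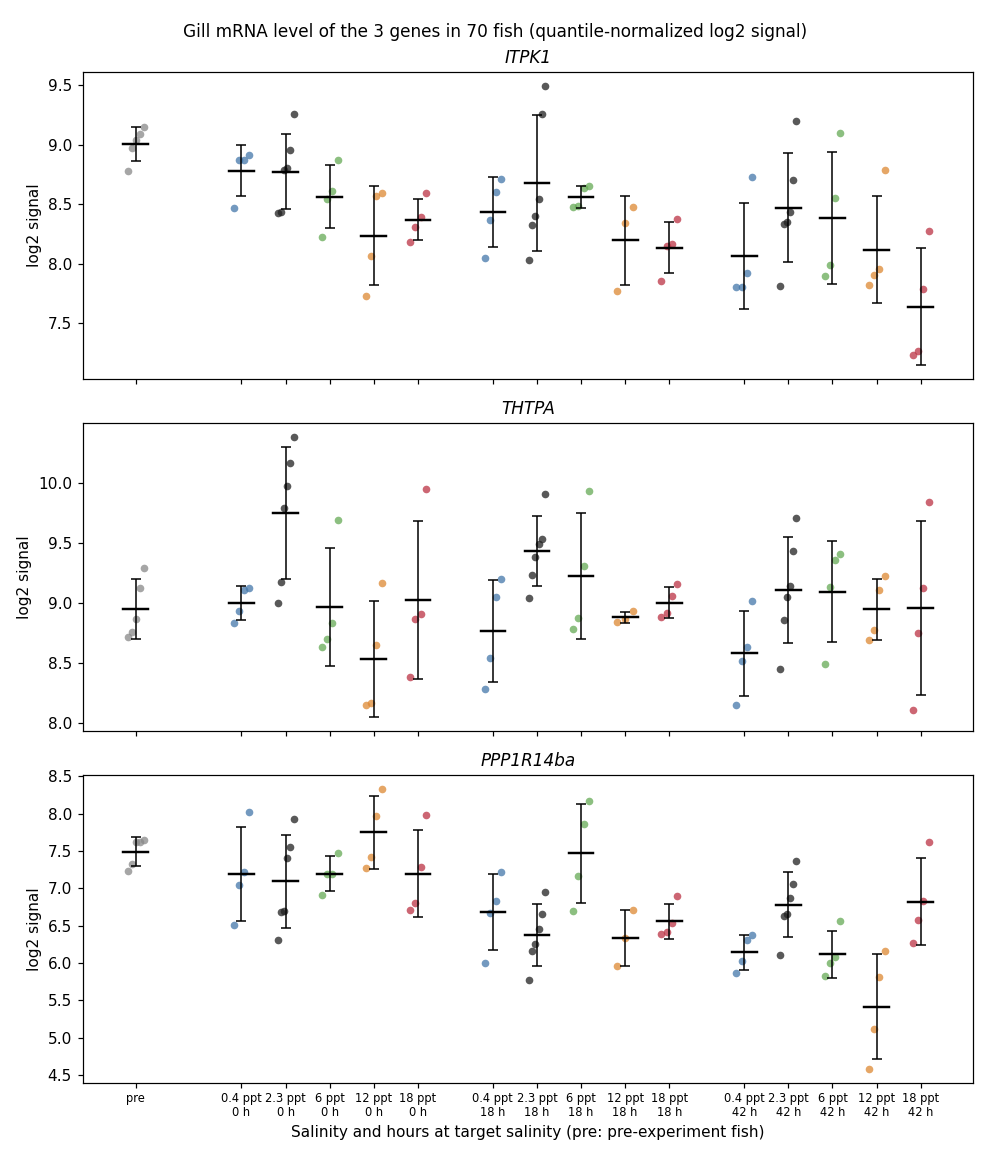
Log2 signal (y axis) of ITPK1, THTPA and PPP1R14ba in each of the 70 fish, by salinity within exposure time (x axis), with the group means and the pre-experiment fish at the left. ITPK1 was lowest in 18 ppt fish at 42 h, at 7.23 (on an array with a median signal of 15.4) and 7.26. PPP1R14ba was lowest in 12 ppt fish at 42 h, at 4.59.

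Of the 3 genes, 0 passed the threshold for the main effect of salinity, where 0.774% of all genes did. The adjusted p was 0.0780 for ITPK1, 0.0619 for THTPA and 0.546 for PPP1R14ba. In limma's comparisons with the 2.3 ppt control averaged over the exposure times, 0 of 3 passed at each salinity, against 0% of all genes at 0.4 ppt, 0% for 6 ppt, 0.0352% for 12 ppt and 0.113% for 18 ppt. At an unadjusted p under 0.05 there was 1 at 0.4 ppt and 1 at 6 ppt, THTPA in both, and 2 at 12 ppt and 2 at 18 ppt, ITPK1 and THTPA. Over all genes and single probes 1367 of 14222 were under it at 0.4 ppt and 1549 of 14222 at 6 ppt. At 12 ppt 1602 of 14224 were, and at 18 ppt 1415 of 14221. For exposure time, 2 of the 3 passed, ITPK1 and PPP1R14ba, against 35.5% of all genes, with adjusted p of 0.0125 and 4.36e-07. THTPA had an adjusted p of 0.661 for exposure time. For the interaction 0 of 3 passed, against 0.0563% of all genes, and the lowest adjusted p was 0.0613, for PPP1R14ba.

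ITPK1, the inositol phosphate kinase, had its highest group mean in the pre-experiment fish and its lowest in those held longest at 18 ppt. The 5 pre-experiment fish read 9.15, 9.09, 8.98, 8.78 and 9.04. At 18 ppt the fish read 8.31, 8.39, 8.60 and 8.18 at 0 h, then 7.85, 8.37, 8.15 and 8.16 at 18 h, and 7.26, 7.23, 8.27 and 7.79 at 42 h. The 7.23 came from processed signals of 21.7 and 20.7 on an array with a median of 15.4. The 9.15 came from an array with a median of 12.9, and the 7.26 from one with a median of 54.5. Every fish at 18 ppt was below every pre-experiment fish, and 12 of 12 were below the control mean of their exposure time. The control fish, with 6 at each time, had their lowest, median and highest values at 8.42, 8.79 and 9.25 at 0 h. The same values were 8.03, 8.47 and 9.50 at 18 h and 7.81, 8.39 and 9.20 at 42 h, so control and 18 ppt fish overlapped at every time.

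Averaged over exposure times, ITPK1 at 18 ppt was -0.59 ± 0.14 (SE) log2 units from the control (95% interval -0.88 to -0.31), which is 1.51-fold lower, with an adjusted p of 0.0787. The difference at 12 ppt was -0.46 ± 0.15, with 10 of 11 fish below the control mean and an adjusted p of 0.270. At 0.4 ppt it was -0.21 ± 0.14 and at 6 ppt -0.14 ± 0.14, with adjusted p of 0.643 and 0.662. A Tukey comparison within the gene alone, without adjustment over genes, gave p of 0.00162 at 18 ppt and 0.0309 at 12 ppt. Scaling each array to its 75th percentile put 18 ppt past the threshold at -0.68, with an adjusted p of 0.0490. By exposure time the difference at 18 ppt was -0.40 ± 0.25 at 0 h, -0.54 ± 0.25 after 18 h and -0.83 ± 0.25 after 42 h. The last had an adjusted p of 0.164. The change in the difference between 0 and 42 h, -0.43 ± 0.35, did not pass, with an adjusted p of 0.9999.

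Beside this, the ionocyte markers were split at 18 ppt. The cell type markers here and below come from the same list, chosen by the study on these fish. They are therefore not an independent reading of cell makeup. Of 6 such markers, 2 fell at 18 ppt, the sodium pump subunits atp1a1a.4 by 1.57 and atp1a1a.1 by 0.73 on the log2 scale, with adjusted p of 0.000318 and 0.0345. Among all genes 0.113% passed there, 16 in number and all of them lower. Among the other 4, the cotransporter gene slc12a2 was at 0.75 and the potassium channel gene kcnj1b at 0.69. The remaining atp1b1b and rhcga were at -0.61 and -0.21, and none of the 4 passed. The summed ionocyte signal at 42 h lay between 6595 and 25675 at 18 ppt and between 29069 and 40237 in the control, without overlap. Such sums follow the brightest markers, here atp1a1a.4 and atp1b1b, with mean log2 levels of 13.9 and 12.7 against 7.96 for slc12a2. At 42 h atp1a1a.4 was at -2.87 from the control, slc12a2 at 1.09 and kcnj1b at 0.96. In that comparison 4 of the 6 markers were lower. The part of cell makeup in the ITPK1 values was not tested, and in whole gill fewer cells of a type and less RNA per cell cannot be told apart.

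The order of the salinities by mean ITPK1 level was 2.3 ppt (8.64), 6 ppt (8.50), 0.4 ppt (8.43), 12 ppt (8.18) and 18 ppt (8.05), and no neighbours in it differed past the threshold. Against the fish at 0.4 ppt those at 18 ppt differed by -0.38 ± 0.16 with an adjusted p of 0.343. The fish at 0.4 ppt read 8.88, 8.91, 8.46 and 8.87 at 0 h and 7.81, 7.92, 8.73 and 7.80 at 42 h. In both of these groups 1 fish stood away from the other 3. At 12 ppt the fish read 8.06, 8.57, 7.72 and 8.59 at 0 h, then 8.47, 7.77 and 8.34 at 18 h, and 7.96, 8.78, 7.90 and 7.82 at 42 h, with no drift between the group means of 8.24, 8.20 and 8.12 beyond their SDs of 0.37 to 0.45.

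Over exposure time ITPK1 fell by 0.41 ± 0.12 on the log2 scale from 0 to 42 h, averaged over the salinities, with an adjusted p of 0.00367, and 19 of 22 fish at 42 h were below the 0 h mean of their salinity. This contrast was past the threshold for 40.9% of all genes in either direction, and 2681 of these 5813 were lower at 42 h. From 0 to 18 h the difference was -0.14 ± 0.12 and from 18 to 42 h it was -0.27 ± 0.12, with adjusted p of 0.435 and 0.133. Within salinities the 42 h minus 0 h difference was -0.73 ± 0.27 at 18 ppt and -0.72 ± 0.27 at 0.4 ppt, against -0.30 in the control, -0.18 in 6 ppt and -0.12 in 12 ppt, and none of these passed. Among the arrays read at the higher detector gain alone, the fall was 0.49 with an adjusted p of 0.0882.

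THTPA, the thiamine triphosphatase, had its highest values in the control and lower means in every other salinity, with the widest gap at the end of the ramp. The 6 control fish at 0 h read 10.17, 9.18, 9.79, 9.97, 9.0 and 10.38. The fish at 12 ppt at 0 h read 8.65, 9.17, 8.17 and 8.15. All 4 fish at 12 ppt were below the control mean of 9.75, and the groups overlapped only through the highest 12 ppt fish and the lowest control fish.

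At 12 ppt at 0 h THTPA fell by 1.21 ± 0.28 on the log2 scale (95% interval -1.77 to -0.66), which is 2.32-fold lower, with an adjusted p of 0.0187. THTPA was the 1 of the 3 genes past the threshold in this comparison, against 1.93% of all genes. The call was lost when 12 ppt fish 3 or fish 4 was left out, with adjusted p of 0.0891 and 0.0981, or when control fish 2 of letter C was, at 0.0662. The arrays of this group were dimmer, with a median signal of 38.4 against 69.2 in the control at 0 h, and with array brightness in the model the difference was -0.96 with an adjusted p of 0.123. Within the first scan day the difference was -1.22 with an adjusted p of 0.130. Within the second, which held 1 fish of 12 ppt at 0 h, it was -1.33.

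Markers of other cell types, from the same list, also differed at 12 ppt at 0 h, where 1.93% of all genes passed. The ammonia transporter gene rhcga, 1 of 6 ionocyte markers past the threshold, fell by 2.36 with an adjusted p of 0.00659, and m17, 1 of the 3 immune markers that passed the signal filter out of 5, rose by 1.44 with an adjusted p of 0.0388. Members of both lists also stood the other way without passing, slc12a2 at 1.14 and the immune marker hcls1 at -0.76. The summed ionocyte signal was 12216 to 34071 against 22030 to 48506 in the control, and the summed immune signal 443 to 5110 against 433 to 790, with overlap in both. Their part in the THTPA result was not tested.

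At the end of the ramp the other salinities gave THTPA differences of -0.75 ± 0.28 for 0.4 ppt, -0.78 ± 0.28 for 6 ppt and -0.72 ± 0.28 for 18 ppt, with adjusted p of 0.563, 0.122 and 0.754. By 42 h they were -0.53 in 0.4 ppt, -0.01 in 6 ppt, -0.16 in 12 ppt and -0.15 in 18 ppt fish. The narrowing at 12 ppt between 0 and 42 h, 1.06 ± 0.39, did not pass as a difference of differences, with an adjusted p of 0.119. The control means were 9.75, 9.43 and 9.11 at the successive times, and those at 12 ppt 8.53, 8.88 and 8.95.

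**Figure D2:**
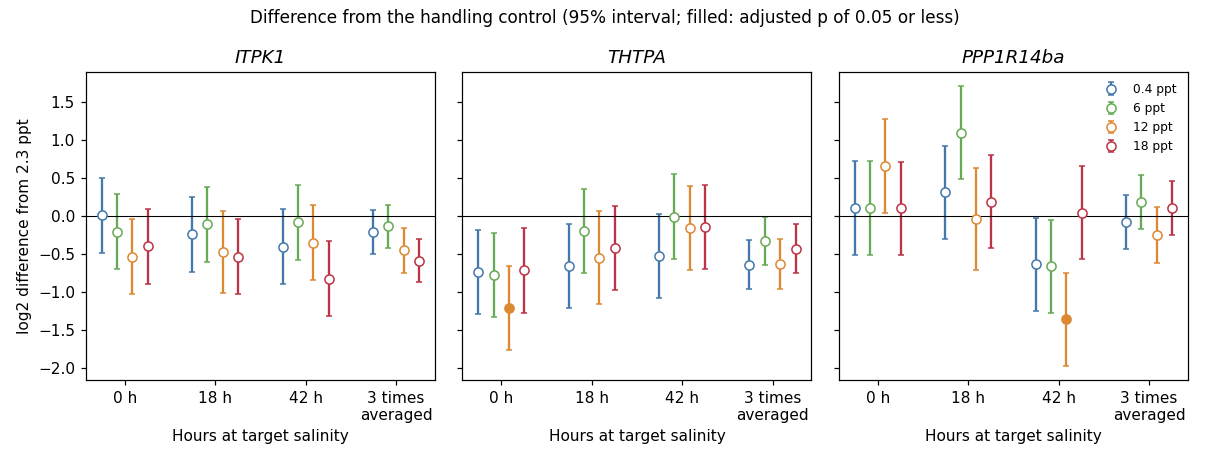
Log2 difference from the 2.3 ppt control (y axis) for each salinity at 0, 18 and 42 h and over the 3 times averaged (x axis), with 95% intervals and filled points at an adjusted p of 0.05 or less. Of the 3 genes, THTPA at 12 ppt at 0 h (-1.21) and PPP1R14ba at 12 ppt at 42 h (-1.37) are filled.

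Averaged over exposure times, THTPA differed from the control by -0.65 ± 0.16 in 0.4 ppt, where 12 of 12 fish were below the control mean of their time, and by -0.64 ± 0.17 at 12 ppt, where 10 of 11 were. The adjusted p were 0.147 and 0.162, while Tukey comparisons within the gene gave 0.00244 and 0.00384. At 18 ppt the difference was -0.43 ± 0.16 and at 6 ppt -0.33 ± 0.16, with adjusted p of 0.495 and 0.456. The salinities ran from 2.3 ppt (9.43) through 6 ppt (9.10), 18 ppt (9.0) and 12 ppt (8.79) to 0.4 ppt (8.78), so both the freshest and a saltier water stood at the lower end. No neighbours in this order differed past the threshold, and 12 ppt and 0.4 ppt differed by 0.00 ± 0.18.

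THTPA showed no difference past the threshold over exposure time, with 0.01 ± 0.13 from 0 to 18 h and -0.12 ± 0.13 from 0 to 42 h. In the control alone, all 6 fish at 42 h were below the 0 h mean, by -0.64 ± 0.25 on average, with an adjusted p of 0.0935. The spread between fish was wide at 18 ppt at 42 h, where the fish read 8.75, 8.11, 9.84 and 9.13. The 8.11 and the 9.84 came from arrays with median signals of 15.4 and 104. It was narrow at 12 ppt at 18 h, where the 3 fish read 8.93, 8.86 and 8.85.

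PPP1R14ba, the gene of the phosphatase 1 inhibitor family, was the gene of the 3 that moved most with time, and most of all at 12 ppt. The fish at 12 ppt read 7.27, 7.42, 8.33 and 7.97 at 0 h, 6.70, 5.96 and 6.33 at 18 h, and 4.59, 5.12, 5.81 and 6.15 at 42 h. The 0 h fish lay above all later ones, and the 18 h and 42 h fish overlapped. In the control the lowest, median and highest of 6 fish were 6.31, 7.05 and 7.92 at 0 h, 5.77, 6.35 and 6.95 at 18 h, and 6.10, 6.76 and 7.37 at 42 h, with overlap between all times.

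Averaged over the salinities PPP1R14ba fell by 0.60 ± 0.15 on the log2 scale from 0 to 18 h (adjusted p of 0.0103, lower in 18 of 21 fish) and by 1.03 ± 0.15 from 0 to 42 h (adjusted p of 7.96e-08, lower in 20 of 22 fish), the latter 2.04-fold. From 18 to 42 h it fell by 0.43 ± 0.15 with an adjusted p of 0.0429. The contrast from 0 to 18 h was past the threshold for 6.46% of all genes, and that from 18 to 42 h for 13.7%. The fall from 18 to 42 h was not past it with the normexp background correction, at -0.18, or when any 1 of 21 of the 70 fish was left out. The normexp setting used the median spot signal and added an offset of 50, which by itself shrinks log2 differences between low signals. No run without the offset was made, so its part in the lost call was not tested.

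Within salinities the 42 h minus 0 h fall of PPP1R14ba was past the threshold at 12 ppt, 6 ppt and 0.4 ppt. At 12 ppt it was -2.33 ± 0.34, or 5.03-fold lower, with an adjusted p of 3.49e-06, where 26% of all genes passed. Under the normexp background correction it was -1.22, with an adjusted p of 0.000176. The size of the fall on this dim probe depends on the setting, and the part of the offset in this was not tested. At 6 ppt it was -1.08 ± 0.34 with an adjusted p of 0.0204, where 22.3% passed. At 0.4 ppt it was -1.05 ± 0.34 with an adjusted p of 0.0485, where 5.7% passed. The median array signal at 6 ppt was 33.8 at 0 h and 78.8 at 42 h, and at 0.4 ppt 57.2 and 54.8. The processed signals at 6 ppt, before normalization, did not fall. They were 84.5, 192, 64.8 and 48.7 at 0 h and 89.1, 82.4, 102 and 221 at 42 h. The call at 6 ppt was lost in 7 of 20 other settings, among them without the filter, with the background filter and in the deposited table (all -0.75), and without fish 2 at 42 h (-1.04) or fish 4 at 0 h (-0.98). The call at 0.4 ppt was lost in 37 of 70 cases with 1 fish left out and in 12 of 20 other settings. In each of these salinities the 0 h and 42 h fish did not overlap. At 2.3 ppt the difference was -0.31 ± 0.27 and at 18 ppt -0.37 ± 0.34, with adjusted p of 0.544 and 0.693.

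At 12 ppt the fall from 0 to 18 h was 1.41 ± 0.36 with an adjusted p of 0.0433, against 0.851% of all genes. This call was lost without any 1 of the 3 fish at 18 h or without fish 2, 3 or 4 at 0 h (adjusted p from 0.0642 to 0.222), and in 8 of 18 other settings. At 18 h the 12 ppt fish stood level with the control, at -0.04 ± 0.34. At 6 ppt the fish read 7.20, 6.91, 7.48 and 7.19 at 0 h and 7.16, 6.70, 7.85 and 8.16 at 18 h, a difference of 0.27 ± 0.34. They then read 6.08, 5.99, 5.83 and 6.56 at 42 h. The fall from 18 to 42 h was 1.35 ± 0.34 with an adjusted p of 0.0487, against 0.879% of all genes. This call was lost in 40 of 70 cases with 1 fish left out. The 7.85 and 8.16 at 18 h came from arrays with median signals of 26.4 and 28.4. At 0.4 ppt the fish read 7.04, 6.50, 7.22 and 8.02 at 0 h, 6.67, 5.99, 6.83 and 7.22 at 18 h, and 6.03, 5.86, 6.37 and 6.30 at 42 h.

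**Figure D3:**
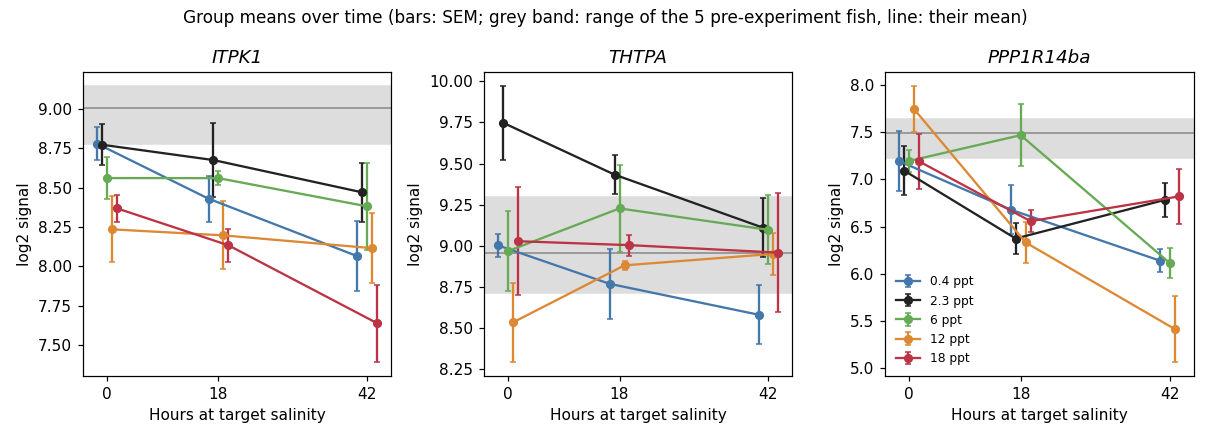
Group mean log2 signal with SEM (y axis) at 0, 18 and 42 h at the target salinity (x axis), 1 line per salinity, with the range of the 5 pre-experiment fish as a grey band. PPP1R14ba at 12 ppt runs from 7.75 to 6.33 to 5.42, while the control runs from 7.09 to 6.37 to 6.78.

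Against the control of the same time, PPP1R14ba at 12 ppt was 0.65 ± 0.31 above it at 0 h, with an adjusted p of 0.160, and was at -1.37 ± 0.31 from it at 42 h (95% interval -1.98 to -0.75). The level at 42 h was 2.58-fold lower with an adjusted p of 0.0105. All 4 fish were below the control mean of 6.78, and the groups overlapped only at 6.15 against 6.10. PPP1R14ba was the 1 of the 3 genes past the threshold there, against 0.991% of all genes. The change in the salinity difference from 0 to 42 h at 12 ppt, tested itself, was -2.02 ± 0.43 with an adjusted p of 0.00933, and 2.23% of all genes passed that contrast. Under normexp it was -1.03 with an adjusted p of 0.0458.

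The values at 12 ppt at 42 h rest on low signal. The 4 fish gave processed signals of 27.8, 30.9, 48.1 and 82.2, and the 6 control fish at 42 h gave 120, 104, 106, 42, 80.9 and 91.3. The difference was -0.66 ± 0.21 with an adjusted p of 0.154 under normexp, against -1.37 ± 0.31 in the report's setting. The part of the offset of 50 in this was not tested. Without the signal filter the difference was -1.13 with an adjusted p of 0.0618. Without 12 ppt fish 1 it was -1.09 with an adjusted p of 0.172, and without fish 2 it was -1.27 with 0.0580. The median array signal was 47.8 at 12 ppt and 48.1 in the control at this time. At 0 h, which the fall and the change at 12 ppt also use, it was 38.4 at 12 ppt and 69.2 in the control. The highest 12 ppt value at 0 h, 8.33 in fish 3, came from a processed signal of 86.9 on an array with a median of 17.1.

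Markers of dividing cells moved the other way in the same fish. At 12 ppt at 42 h 0.991% of all genes passed, and 16 of these 141 were lower. Of 5 markers of dividing cells, 4 rose past the threshold there. These were aurkb by 1.41, ccnb1 by 1.80, birc5a by 1.67 and ube2c by 1.16 on the log2 scale, while mcm4, at 0.73, did not pass. The markers belong to the list that the study chose on salinity in these fish. The summed signal of the 5 markers was 3413 to 4494 against 1088 to 2228 in the control, without overlap. Their part in the PPP1R14ba result was not tested.

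By salinity alone PPP1R14ba was ordered 6 ppt (6.93), 18 ppt (6.86), 2.3 ppt (6.75), 0.4 ppt (6.67) and 12 ppt (6.50), with no neighbours past the threshold and no difference from the control with an adjusted p under 0.61. The low mean at 12 ppt over the times hides the high 0 h and low 42 h values given above. At 6 ppt at 18 h all 4 fish were above the control mean, by 1.09 ± 0.31, but the adjusted p was 0.799.

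Handling was read from the 2.3 ppt control against the 5 pre-experiment fish, a comparison in which 0% of all genes passed at 0 h, 0.176% after 18 h and 12.4% after 42 h. Of the 3 genes 0 passed in limma at each time, and at an unadjusted p under 0.05 there was 1 at 0 h (THTPA), 1 after 18 h (PPP1R14ba) and 2 after 42 h (ITPK1 and PPP1R14ba). Over all genes and single probes 1580 of 14225 were under it at 0 h, 1790 of 14225 after 18 h and 3994 of 14226 after 42 h. The pre-experiment fish read 8.71, 9.30, 8.87, 9.13 and 8.76 for THTPA, and all 6 control fish at 0 h were above their mean, by 0.79 ± 0.26 with an adjusted p of 0.406. At 0 h the other salinities stood near the pre-experiment mean for THTPA, at 0.05 in 0.4 ppt, 0.01 in 6 ppt, -0.42 in 12 ppt and 0.07 in 18 ppt. Neither the control nor any group of moved fish was past the threshold from the pre-experiment level of THTPA at 0 h. These comparisons therefore do not settle from which side the gap between control and moved fish at the end of the ramp arose.

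For PPP1R14ba the pre-experiment fish read 7.64, 7.62, 7.33, 7.23 and 7.62. All 6 control fish at 18 h were below all of them, with a difference of -1.12 ± 0.29 and an adjusted p of 0.0695, and at 42 h the difference was -0.71 ± 0.29 with 0.0925. Against these fish ITPK1 in the control stood at -0.23 at 0 h, -0.33 after 18 h and -0.54 ± 0.23 after 42 h, the last with an adjusted p of 0.113. ITPK1 at 0 h differed from the pre-experiment fish by -0.77 ± 0.26 in 12 ppt and by -0.64 ± 0.26 in 18 ppt, and neither passed. Neither group overlapped these fish, which was not counted over all genes.

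Within groups the genes did not deviate alike. THTPA and PPP1R14ba deviated from their group means in opposite directions over the 70 fish, with a Pearson r of -0.408 (permutation within groups, two-sided p of 0.00403, adjusted over 3 pairs 0.0121) and a Spearman rho of -0.417 (p of 0.00247, adjusted 0.00741). Without the 2 fish farthest from the THTPA median r was -0.393. It was -0.47 and -0.291 within the 2 scan days and -0.422 and -0.468 within the lower and higher detector gain. The deviations of both genes also moved with array brightness, with r of 0.397 for THTPA and -0.46 for PPP1R14ba, and with brightness removed the relation was -0.277 with a permutation p of 0.0577. For ITPK1 no relation passed over the 70 fish, with r of 0.12 to THTPA (permutation p of 0.384, adjusted 0.576, rho of 0.0492 with p of 0.722) and 0.0026 to PPP1R14ba (p of 0.985, adjusted 0.985, rho of 0.0528 with p of 0.697). The r of ITPK1 and THTPA varied between batches, with 0.0642 and 0.381 within the 2 scan days and -0.0724 and 0.444 within the lower and higher gain. That of ITPK1 and PPP1R14ba was 0.0868 and 0.0223 within the scan days and 0.168 and -0.124 within the gains.

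**Figure D4:**
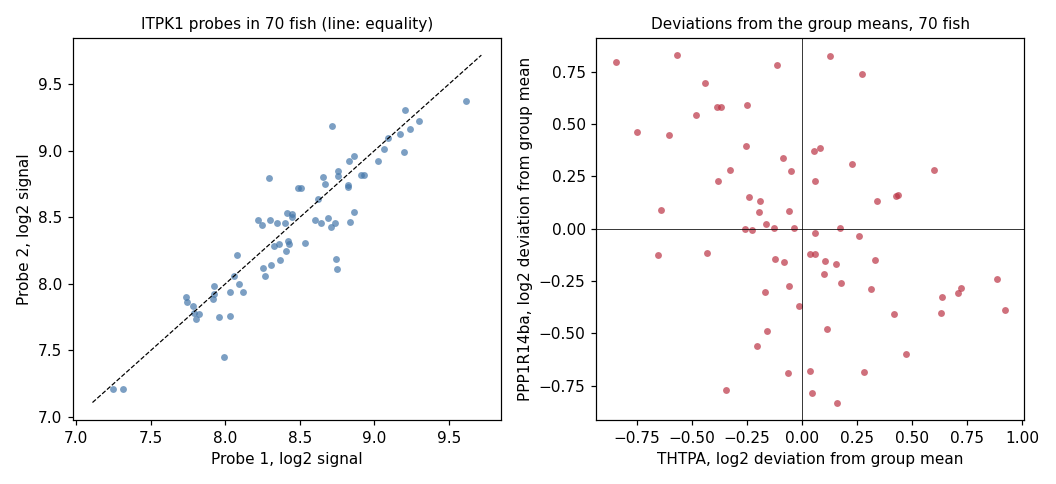
Left, log2 signal of ITPK1 probe 1 (x axis) against probe 2 (y axis) in 70 fish with the line of equality. Right, log2 deviation from the group mean of THTPA (x axis) against PPP1R14ba (y axis) in the same fish, with a Pearson r of -0.408 before and -0.277 after array brightness was removed.

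Other phosphate-handling genes of the same list, also chosen by the study on these fish, numbered 21, of which 19 passed the signal filter. Against the control at 18 ppt, where 0.113% of all genes passed, all 16 of them lower, 0 rose and 1 fell. That was lpar2a, a receptor for lysophosphatidic acid, lower by 0.52 ± 0.11 on the log2 scale with an adjusted p of 0.0257. It belongs to 7 inositol and phospholipid signaling genes whose median difference at 18 ppt was -0.20, against -0.03 over all genes. The 4 serine/threonine phosphatase subunits had a median of -0.24, and the widest difference among them was that of ppp1r3cb, a glycogen-targeting subunit of protein phosphatase 1, at -0.72 with an adjusted p of 0.216. The tyrosine, dual specificity and haloacid dehalogenase phosphatases, 4 of 5 above the filter, had a median of -0.12, led by eya2 at -0.44 with an adjusted p of 0.176. The nucleotide and sulfate enzymes, also 4 of 5, had a median of 0.07, led by the nucleotidase nt5c1ba at 0.18 with an adjusted p of 0.516.

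At 12 ppt at 0 h, where THTPA was lower, 3 of the 19 passed, against 1.93% of all genes. Their names were picked after their values were seen. The phosphatase 1 subunit ppp1r3cb fell by 1.27 and si:dkey-66a8.7 by 1.26, while ptprsa, a receptor tyrosine phosphatase, rose by 1.01. At 12 ppt at 42 h, where PPP1R14ba was lower, 0.991% of all genes passed, and 16 of these 141 were lower. Of the 19, 2 passed, both higher. They too were picked after their values were seen. These were ppp3r1b, the regulatory subunit of calcineurin, at 0.67 and dut, which hydrolyses dUTP, at 0.80, with adjusted p of 0.0184 and 0.0105. From 0 to 42 h 11 of 19 passed, 7 higher and 4 lower, beside the 40.9% of all genes.

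The courses most like each gene were sought among 345 named genes of the list, by Pearson r over the 16 group means, which all come from the same arrays. For ITPK1 these were NIPAL2 (2 of 2) at 0.77, acsbg2, of the long-chain acyl-CoA synthetases, at 0.752 and BX950862.1 at 0.745, and the most opposed was hyou1, a chaperone of the endoplasmic reticulum, at -0.785. For THTPA they were si:dkeyp-72e1.6 at 0.732, acadm, the medium-chain acyl-CoA dehydrogenase, at 0.714 and si:dkey-66a8.7 at 0.714, opposed by rrbp1a, a ribosome-binding membrane protein, at -0.77. At 12 ppt at 0 h these 3 genes differed from the control by -0.69, -1.38 and -1.26, which the choice by likeness to THTPA favors and which is given as a description. For PPP1R14ba they were ptprsa at 0.881, the transcription factor zeb2a at 0.844 and flna, the actin crosslinker filamin A, at 0.828, opposed by si:dkey-17e16.9 at -0.884. Over the 70 single fish the r of ptprsa with PPP1R14ba was 0.737. From 0 to 42 h ptprsa differed by -0.89 and si:dkey-17e16.9 by 1.44, which the choice likewise favors.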

How the data were processed

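The authors extracted the intensity of each spot with Feature Extraction 11.5.1.1, which corrected background within the array. The authors also deposited a log2 table, quantile-normalized and, from its values, centered on each probe's median, and it was used as an alternative. Here, the probes kept (14425 of 36818) reached a processed signal of 100 on 50% or more of the arrays, 2036 outlier spots were left out, and the intensities were quantile-normalized and log2-transformed. The group means were modeled in limma 3.58.1 under R 4.3.3 (16 groups, residual degrees of freedom 54, median residual SD 0.448), and p-values were adjusted by Benjamini-Hochberg over 14226 genes and single probes. Genes are the mean of their listed probes. Tukey comparisons used emmeans 1.11.2.8, and correlations 100000 permutations within groups. Precision is limited by the number of arrays. Salinities and hours follow the study's methods, since the labels round the first and count the second from the start of the ramp.

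Beyond the 3 genes, the text names the 3 listed genes most correlated with each of them and the 1 most opposed, and in each group of related genes the one with the largest absolute difference at 18 ppt. The genes, the lists and the tests were chosen with earlier results of these data known. Fish numbers were not found to pair fish across groups. The script was tested on simulated data. Alternatives were other background corrections, scalings and filters, blocks or covariates for slide, scan day, detector gain and brightness, array weights, and leaving out each fish or control letter.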

Additional observations from a re-analysis of the deposited data

Results flagged for a closer look

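The lowest or highest fish of a group lay far from the other 3 in 3 of the 45 groups tested over the 3 genes, where chance gives about 1 in 20 groups. All 3 cases were ITPK1. At 0.4 ppt at 0 h fish 3 read 8.46 against 8.87 to 8.91 in the others, at 0.4 ppt at 42 h fish 4 read 8.73 against 7.80 to 7.92, and at 12 ppt at 42 h fish 2 read 8.78 against 7.82 to 7.96. The salinity difference of PPP1R14ba at 12 ppt changed by -2.02 on the log2 scale between 0 and 42 h, and that change passed its own test.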

How the results depend on the processing

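The alternatives were run on 33 results of the 3 genes, and other differences in the report were not put through them. No log2 difference among the 33 changed direction under any alternative, and the main effects and interactions have no direction. Over the 33 results, 560 of 649 values under other settings kept their side of the threshold, 67 lost the call and 22 gained one. With 1 fish left out, 2175 of 2310 kept it, 111 lost it and 24 gained one. A comparison of single groups keeps its difference when a fish of another group is left out. These totals therefore include many cases in which only the spread and the adjustment could move. No cause was tested. Values below are log2 differences unless named as adjusted p, and the main values stand in the report.

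For ITPK1, 18 ppt against 2.3 ppt was past the threshold at -0.68 with the 75th percentile shift and at -0.59 by Tukey's test, and ranged from -0.66 to -0.54 with 1 fish left out, past it without 18 ppt fish 6 at 42 h (the -0.66) or control fish A1 or A3 at 18 h or B1 at 42 h. At 12 ppt it passed at -0.40 with array weights and -0.46 by Tukey's test. The adjusted p for salinity was 0.0381 with array weights and 0.0401 to 0.124 with 1 fish left out. For time it was 0.0813 with slide as a fixed block and 0.183 at the higher detector gain alone, where the 42 h minus 0 h difference was -0.49.

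For THTPA, 12 ppt against 2.3 ppt at 0 h lost the call on scan day 1 alone (-1.22), at the lower gain alone (-1.30), with brightness as a covariate (-0.96) and without control letter A (-1.25) or B (-1.17). It ranged from -1.43 to -1.09 with 1 fish left out. On scan day 2, with 1 fish at 12 ppt, it was -1.33, and at the higher gain, with 1 control fish at 0 h, it was -1.31. The adjusted p for salinity was 0.0387 with brightness, 0.00216 with array weights and 0.0318 to 0.112 with 1 fish left out. Averaged over time, 0.4 ppt passed at -0.68 with array weights and -0.65 by Tukey's test, and 12 ppt at -0.61 and -0.64. The control at 0 h minus the pre-experiment fish passed at 0.92 with array weights.

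For PPP1R14ba, 12 ppt against 2.3 ppt at 42 h lost the call under normexp (-0.66), without the filter (-1.13), at the lower gain alone (-1.41) and without control letter A (-1.29). This difference ranged from -1.61 to -1.09 with 1 fish left out, and was -0.73 at the higher gain, with 1 fish at 12 ppt. Its change from 0 to 42 h lost the call at the lower gain alone (-2.0) and without control letter A (-1.82). At the higher gain, with 1 fish at 12 ppt at 42 h, the change was -1.20 and the 42 h minus 0 h fall at 12 ppt was -1.72. The 42 h minus 18 h difference lost the call under normexp (-0.18), without the filter or with the background filter (both -0.40) and without control letter A (-0.41) or B (-0.38). This difference ranged from -0.48 to -0.37 with 1 fish left out, and was -0.093 at the higher gain, where some groups held 1 fish. The 18 h minus 0 h difference lost it with brightness (-0.47). The control at 18 h minus the pre-experiment fish gained the call with the 75th percentile shift and with gain as a block (both -1.16), without the filter (-1.17), with the background filter and in the deposited table (both -1.18) and with array weights (-1.36). The adjusted p for the interaction was 0.0486 with the 75th percentile shift, 0.0365 with slide as a random block, 0.0458 with scan day as a block, 0.00179 with array weights and 0.0289 to 0.164 with 1 fish left out. Of the falls within a salinity, those from 0 to 18 h at 12 ppt, from 0 to 42 h at 6 and 0.4 ppt and from 18 to 42 h at 6 ppt lost the call under the changes given in the report.

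With the fish number as a replicate block, PPP1R14ba at 12 ppt at 42 h was -1.5 and THTPA at 12 ppt at 0 h -1.17. PPP1R14ba lost the calls from 0 to 18 h at 12 ppt and from 18 to 42 h at 6 ppt, with adjusted p of 0.0529 and 0.104. Same-numbered fish did not deviate together, with a mean r of 0.0051 over 480 pairs. Under a filter of 100 on every array none of the 3 genes could be tested. Across settings the genes past the threshold ranged from 13 to 3587 for salinity (110 in the report's setting), 953 to 8552 for time (5052), 0 to 4456 for the interaction (8), 36 to 5382 at 12 ppt at 0 h (274), 10 to 1106 at 42 h (141) and 1150 to 8560 from 0 to 42 h (5813), and the highest counts came with array weights except from 0 to 42 h, where the background filter gave it. The depth limit is signal over background, which bears on PPP1R14ba, at 100 or more on 40 of 70 arrays.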
